A study of Homo sapiens with 74 samples.

Results

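The mitosis and spindle genes are 36 human genes whose products drive entry into mitosis, attach chromosomes to the spindle and divide the cell. They were taken by symbol from a list of genes by function, drawn up with earlier results of these data known, and all 36 were among the 28131 genes of each count table. RNA of established human erythroleukaemia cell lines was sequenced to ask what loss of the DOT1L complex does to transcription. DOT1L is the methyltransferase of lysine 79 of histone H3, and ENL (gene MLLT1) is a reader of acetylated histones that associates with it. In K562, wild-type control cells (2 distinct libraries) were compared with DOT1L-/- cells (DOT1L KO, 3 libraries) and with ENL-/- cells (ENL KO, 3 libraries). In HEL, control cells (2 libraries) were compared with DOT1L knockdown cells (DOT1L KD, 2 libraries). The labels used here name neither a clone for the K562 knockouts nor the agent of the HEL knockdown. They do not say whether libraries of a group came from separate cultures, so p-values measure the spread between these libraries, which may be technical.

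Mitosis is driven by cyclin-dependent kinase 1 with its A and B type cyclins, and it ends when the anaphase-promoting complex (APC/C) marks cyclin B and securin for destruction. Until every kinetochore is held by the spindle, the checkpoint proteins keep the APC/C activator CDC20 in check. Most genes of this programme are transcribed late in the cell cycle, through CCAAT boxes bound by NF-Y and a cell cycle homology region (CHR) bound by the DREAM and MuvB complexes with B-MYB and FOXM1. In bulk RNA, a smaller share of cells in G2 and mitosis and less RNA per such cell cannot be told apart.

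The promoter letters that the members share are shown first. RefSeq promoter windows (GRCh38.p14, 250 bases before to 50 after a start) were matched for 30 of the 36 members, as 34 windows. No window was matched for AURKA, BUB3, TTK, BIRC5, TPX2 and UBE2C. The letters CCAAT, on either strand, stood in 26 of the 34 windows (76.5%) and in 34.6% of all 35116 windows of the table. CHR letters, here TTTGAA or TTCGAA on either strand, stood in 24 of the 34 (70.6%) against 16.4% of all windows. Both were present in 19 member windows (55.9%) against 6.38% of all. Among windows of genes tested in K562 the shares were 34.6%, 11.97% and 4.92%. The median first base of the 54 CCAAT matches was 78.5 bases before the start, and that of the 33 CHR matches was 23 bases before it. The 2 windows of a gene can overlap, so a match can count in both.

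Stretches of 5 members are printed as examples, which are not the members with the 5 largest changes. Each runs from 150 bases before the start to the last base ahead of the first exon listed for the gene in the deposited tables. BUB1 (chr2:110678108-110678213, minus strand) moved in opposite directions in the K562 knockouts, and CCNB2 (chr15:59104996-59105084, plus strand) fell in ENL KO. PTTG1 (chr5:160421705-160421854, plus strand) moved in opposite directions in the cell lines, CDC20 (chr1:43358831-43358954, plus strand) fell in DOT1L KO, and ECT2 (chr3:172750576-172750684, plus strand) rose most in HEL. Each is written 5′ to 3′ on the strand of its gene, and capitals mark the letters of CCAAT and CHR. A CCAAT on the opposite strand reads ATTGG. In PTTG1, both orientations of CCAAT overlap in one run.
BUB1: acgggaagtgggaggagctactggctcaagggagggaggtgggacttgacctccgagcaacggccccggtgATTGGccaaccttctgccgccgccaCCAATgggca
CCNB2: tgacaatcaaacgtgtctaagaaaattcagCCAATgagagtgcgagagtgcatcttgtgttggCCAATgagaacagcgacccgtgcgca
PTTG1: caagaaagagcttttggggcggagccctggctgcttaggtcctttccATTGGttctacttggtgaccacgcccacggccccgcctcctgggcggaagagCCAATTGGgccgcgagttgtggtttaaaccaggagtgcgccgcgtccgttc
CDC20: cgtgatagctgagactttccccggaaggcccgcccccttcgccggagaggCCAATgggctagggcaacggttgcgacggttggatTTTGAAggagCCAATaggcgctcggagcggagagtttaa
ECT2: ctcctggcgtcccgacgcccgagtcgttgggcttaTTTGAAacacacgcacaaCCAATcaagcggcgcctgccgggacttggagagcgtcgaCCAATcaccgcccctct
All 5 stretches hold CCAAT more than once. Some other members with large changes hold fewer: the windows of BUB1B, NUF2 and ANLN have 0 CCAAT matches and those of KIF23 and MAD2L1 have 1 each. CHR letters lie in the printed part of CDC20 and ECT2, while those of CCNB2 lie at base -29 and those of BUB1 at base 2 from the start, past the printed ends. The PTTG1 windows hold no CHR letters. Whether these letters bear on the changes below was not tested.

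**Figure D1:**
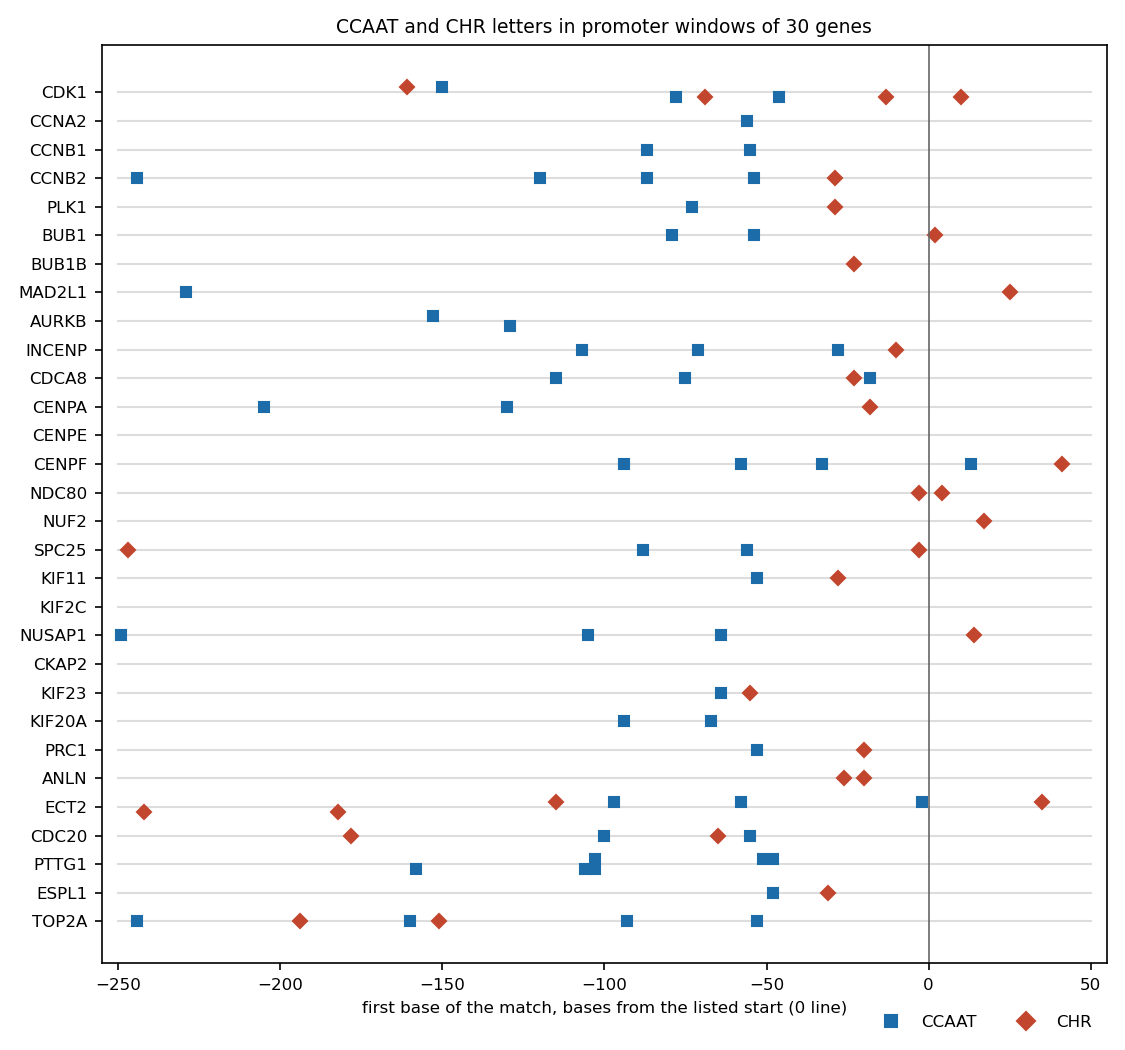
First base of each CCAAT match (squares) and CHR match (diamonds) in the promoter windows of 30 mitosis and spindle genes, in bases from the listed start. The matches of genes with 2 windows are offset slightly above and below the line; CCAAT matches lie mostly further upstream (median 78.5 bases before the start) than CHR matches (median 23 bases before the start), and CENPE, KIF2C and CKAP2 have neither.

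Library totals ranged from 15404944 (ENL KO 3) to 29236703 counts in K562. The 4 HEL libraries held 12151495 to 12811688. The third K562 control column equalled the second in every gene and was counted with it as 1 library. DOT1L itself had 269.8 and 256 CPM (each count relative to its library's TMM-scaled total) in K562 control and 186, 176 and 184 in DOT1L KO, and 97.5 and 87.4 in HEL control and 29.1 and 30.0 in DOT1L KD. MLLT1 had 214 and 219 CPM in K562 control and 153, 157 and 154 in ENL KO. All 7 erythroid markers examined were counted in every library, at 24.6 CPM or more. Of 12 T cell, B cell, monocyte and fibroblast markers, MS4A1 was at 0 in every library, and the 4 with the highest K562 levels differed between DOT1L KO and control without overlap. LYZ had 35.4 and 32.6 CPM in control and 317, 323 and 291 in DOT1L KO, COL1A1 10.1 and 11.7 and 116, 120.4 and 114, COL3A1 1.95 and 1.89 and 12.7, 14.9 and 16.1, and CD3D 52.8 and 51.1 and 20.1, 16.8 and 15.4. In ENL KO, LYZ had 20.5, 19.5 and 19.4 CPM and CD3D 72.0, 64.9 and 61.0. In HEL, CD3D, COL1A1 and COL3A1 were at 0.0813 CPM or less and LYZ was at 44.1 to 50.6. The T cell marker CD2 went the other way, at 8.49 to 11.1 CPM in HEL and 0.0473 or less in K562. The B cell marker CD79A was at 0.954 to 1.91 CPM in HEL and 0.331 or less in K562. The part of these markers in the results was not tested. The values of 7 members that share exonic bases with another gene are uncertain. CCNA2, PLK1, KIF23, KIF20A, PRC1 and ANLN overlap a gene on the opposite strand, and the use of strand in counting is not given in the sources used here; BUB1B overlaps BUB1B-PAK6 on its own strand.

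The members differed widely in level, and their order differed between the lines. Levels are compared between genes per kb of exonic length. In K562 the highest was PLK1 (chr16:23678772-23690367, plus strand), the Polo-like kinase of mitotic entry and spindle assembly, at 146 to 175 CPM per kb over 8 libraries, above all other members in every library. TOP2A (chr17:40388521-40417950, minus strand), the topoisomerase that decatenates sister chromatids, followed at 109 to 140.3 CPM per kb. Its range overlapped those of CDC20 (99.1 to 130.0), CCNB1 (88.2 to 127) and TPX2 (93.4 to 125), but these ranges pool control and knockouts. Of these 4, TOP2A had the highest mean in each K562 group. In control it was at 124.0 CPM per kb, with CDC20 next at 117.2. In HEL the highest was BUB1 (chr2:110637698-110678107, minus strand), a kinase of the spindle checkpoint, at 403 to 466 CPM per kb over 4 libraries. TOP2A came next at 328 to 341 and TPX2, an activator of Aurora A on spindle microtubules, after it at 247 to 266 CPM per kb, and these 3 ranges did not overlap. Summed over the 36 members, the level was 5242 to 6114 CPM in the K562 libraries and 10987 to 11265 CPM in HEL. The K562 table counts fragments and the HEL table reads, so levels in the 2 tables are set side by side without a test.

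UBE2C and SPC25 were near the lower limit in one table only. UBE2C (chr20:45812576-45816957, plus strand), the ubiquitin-conjugating enzyme that primes APC/C substrates, had 0.511 and 0.709 CPM in K562 control, 0.954, 0.541 and 0.710 in DOT1L KO and 1.26, 0.195 and 0.391 in ENL KO. In HEL it had 64.2 and 67.8 CPM in control and 74.0 and 75.6 in DOT1L KD. The K562 values rest on 4 to 26 counts a library and the HEL values on 804 to 930, although the K562 libraries were the deeper ones. The 2 tables were counted separately, and whether the low K562 values of UBE2C reflect the RNA or the counting was not tested. SPC25 (chr2:168870891-168890434, minus strand), a subunit of the NDC80 kinetochore complex, had 11.2 and 12.7 CPM in K562 control, 11.3, 10.8 and 10.8 in DOT1L KO and 11.7, 13.1 and 12.6 in ENL KO. In HEL it had 0.799 and 0.635 CPM in control and 0.875 and 0.651 in DOT1L KD, or 8 to 11 counts, and was not tested there. SPC25 is the 1 member with exons also listed on an alternate contig. Of 370 genes tested in K562 with such exons, 69.5% were not tested in HEL, against 17.2% of the 13931 genes without them. Whether the low HEL values of SPC25 reflect the RNA or the counting was not tested either. By the mean over the 4 libraries, the lowest tested member of HEL was ESPL1 (chr12:53268299-53293643, plus strand), the separase that cleaves cohesin, at 11.7 to 15.0 CPM per kb, a range that overlapped that of ECT2 (9.93 to 19.9).

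**Figure D2:**
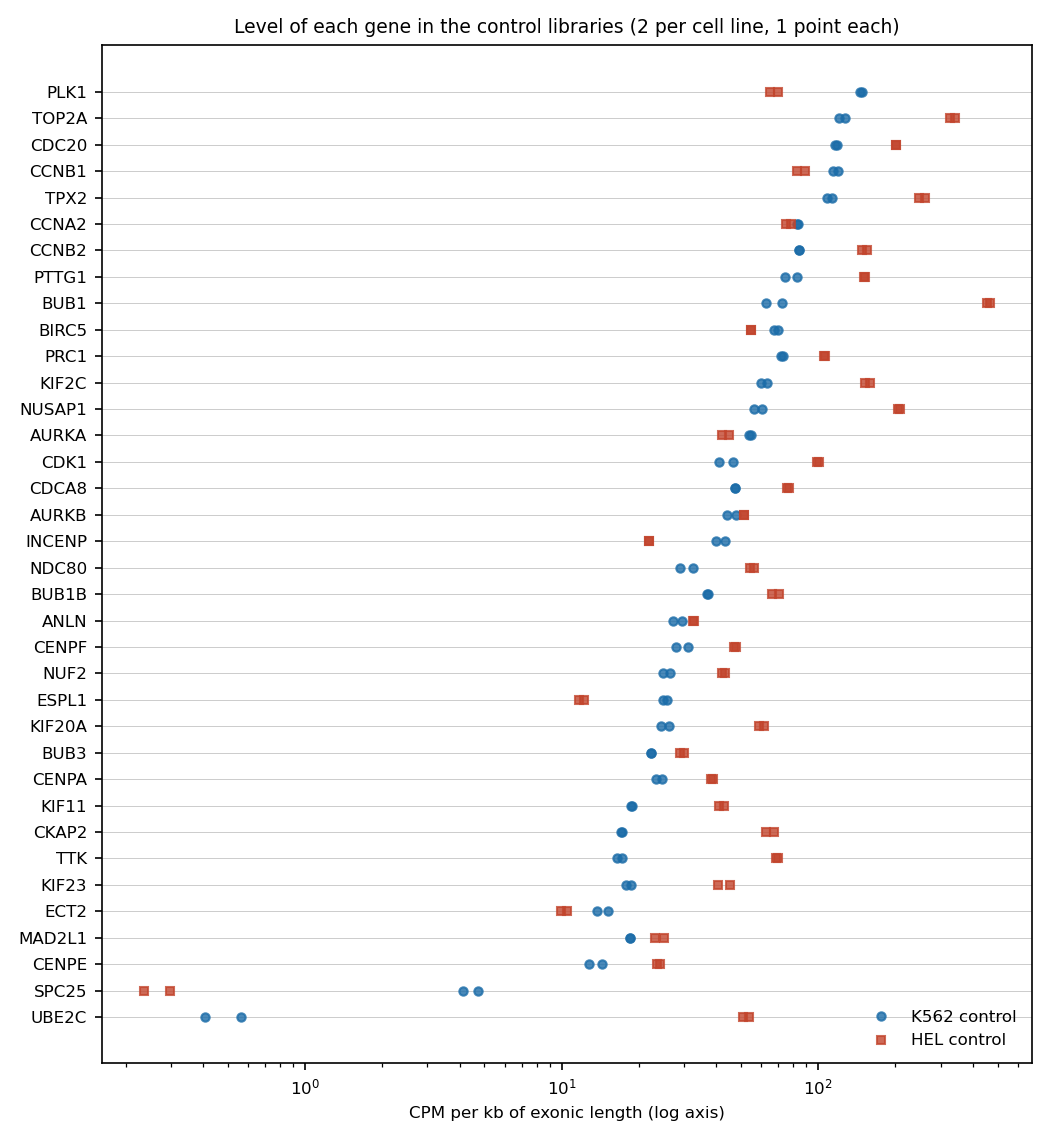
CPM per kb of exonic length (log axis) of each member in the 2 K562 control libraries (circles) and the 2 HEL control libraries (squares), ordered by the mean over all K562 libraries. PLK1 is at the top of the K562 order and BUB1 is highest in HEL, while UBE2C is low in K562 and SPC25 low in HEL.

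Loss of DOT1L in K562 lowered 12 of the 36 members past an adjusted p of 0.05 and raised none (edgeR's quasi-likelihood test, Benjamini-Hochberg adjustment over 14301 genes). Over all genes tested, 51.1% were called, 26.9% higher and 24.2% lower; the members were at 33.3%, 0 higher and 33.3% lower. The changes were small. The member median was -0.11 on the log2 scale beside 0.011 over all genes, the lowest value was -0.40, and 11 of 36 values were above 0. Libraries of the 2 groups did not overlap for 23 members (63.9%), against 68.1% of all genes. The summed level of the 36 members was 5636 and 5881 CPM in control and 5242, 5549 and 5291 CPM in DOT1L KO, without overlap. The gap was smaller than that between the controls. The sums overlapped control in ENL KO (5732, 5892 and 6114 CPM). They also overlapped between HEL control (10987 and 11265 CPM) and DOT1L KD (11104 and 11009 CPM).

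Among the kinases and cyclins, 2 of 6 fell. AURKA (chr20:56369389-56392337, minus strand), the Aurora kinase of centrosome maturation and spindle poles, had 139 and 141 CPM in control and 109, 110.4 and 99.0 in DOT1L KO. All 3 knockout libraries lay below both controls, with a change on the log2 scale of -0.40 ± 0.06 (SE; adjusted p = 9.35e-05). CCNB1 (chr5:69167010-69178243, plus strand), the cyclin B that activates CDK1 at mitotic entry, had 248 and 259.9 CPM in control and 207, 206 and 191 in DOT1L KO, a change on the log2 scale of -0.33 ± 0.06 (SE; adjusted p = 0.000308). Its groups did not overlap either. CDK1, CCNA2, CCNB2 and PLK1 had log2 values of -0.03, 0.08, -0.11 and 0.10 and did not pass the test. PLK1 passed it with library-size scaling, with the replicate block and with all control columns kept, and CCNB2 in the last of these.

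Of the genes of anaphase onset, CDC20, the APC/C activator (-0.22 ± 0.05 log2, SE), and PTTG1 fell. PTTG1 (chr5:160421855-160428744, plus strand), the securin that holds separase inactive, had 82.4 and 92.3 CPM in control and 67.6, 73.4 and 70.1 in DOT1L KO, a change on the log2 scale of -0.31 ± 0.07 (SE; adjusted p = 0.00266). Of the checkpoint, 1 of 5 members fell. BUB1 had 229 and 263 CPM in control and 195, 214 and 199 in DOT1L KO, a change on the log2 scale of -0.28 ± 0.07 (SE; adjusted p = 0.00619). Both PTTG1 and BUB1 were lower in all 3 knockout libraries than in either control; control 1 was the closer of the controls.

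The other 7 calls were spread over the remaining groups. KIF2C, a microtubule-depolymerising kinesin of centromeres (-0.26), TPX2 (-0.22), KIF20A, a kinesin of the central spindle (-0.22), and PRC1, which bundles its antiparallel microtubules (-0.24), fell. So did NUF2 of the NDC80 complex (-0.23), CENPA, the histone H3 variant of centromeres (-0.24), and BIRC5, survivin of the chromosomal passenger complex (-0.16). The count was 6 without control 2, where BUB1 (-0.18, adjusted p = 0.126), PTTG1 (-0.23, adjusted p = 0.058), NUF2, KIF20A, CENPA and BIRC5 were lost. AURKA, CCNB1, CDC20, KIF2C, TPX2 and PRC1 stayed past the threshold under every alternative run except a minimum fold. None of the 12 reached an absolute log2 fold change of 0.5, which 28.6% of all genes did past the threshold.

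**Figure D3:**
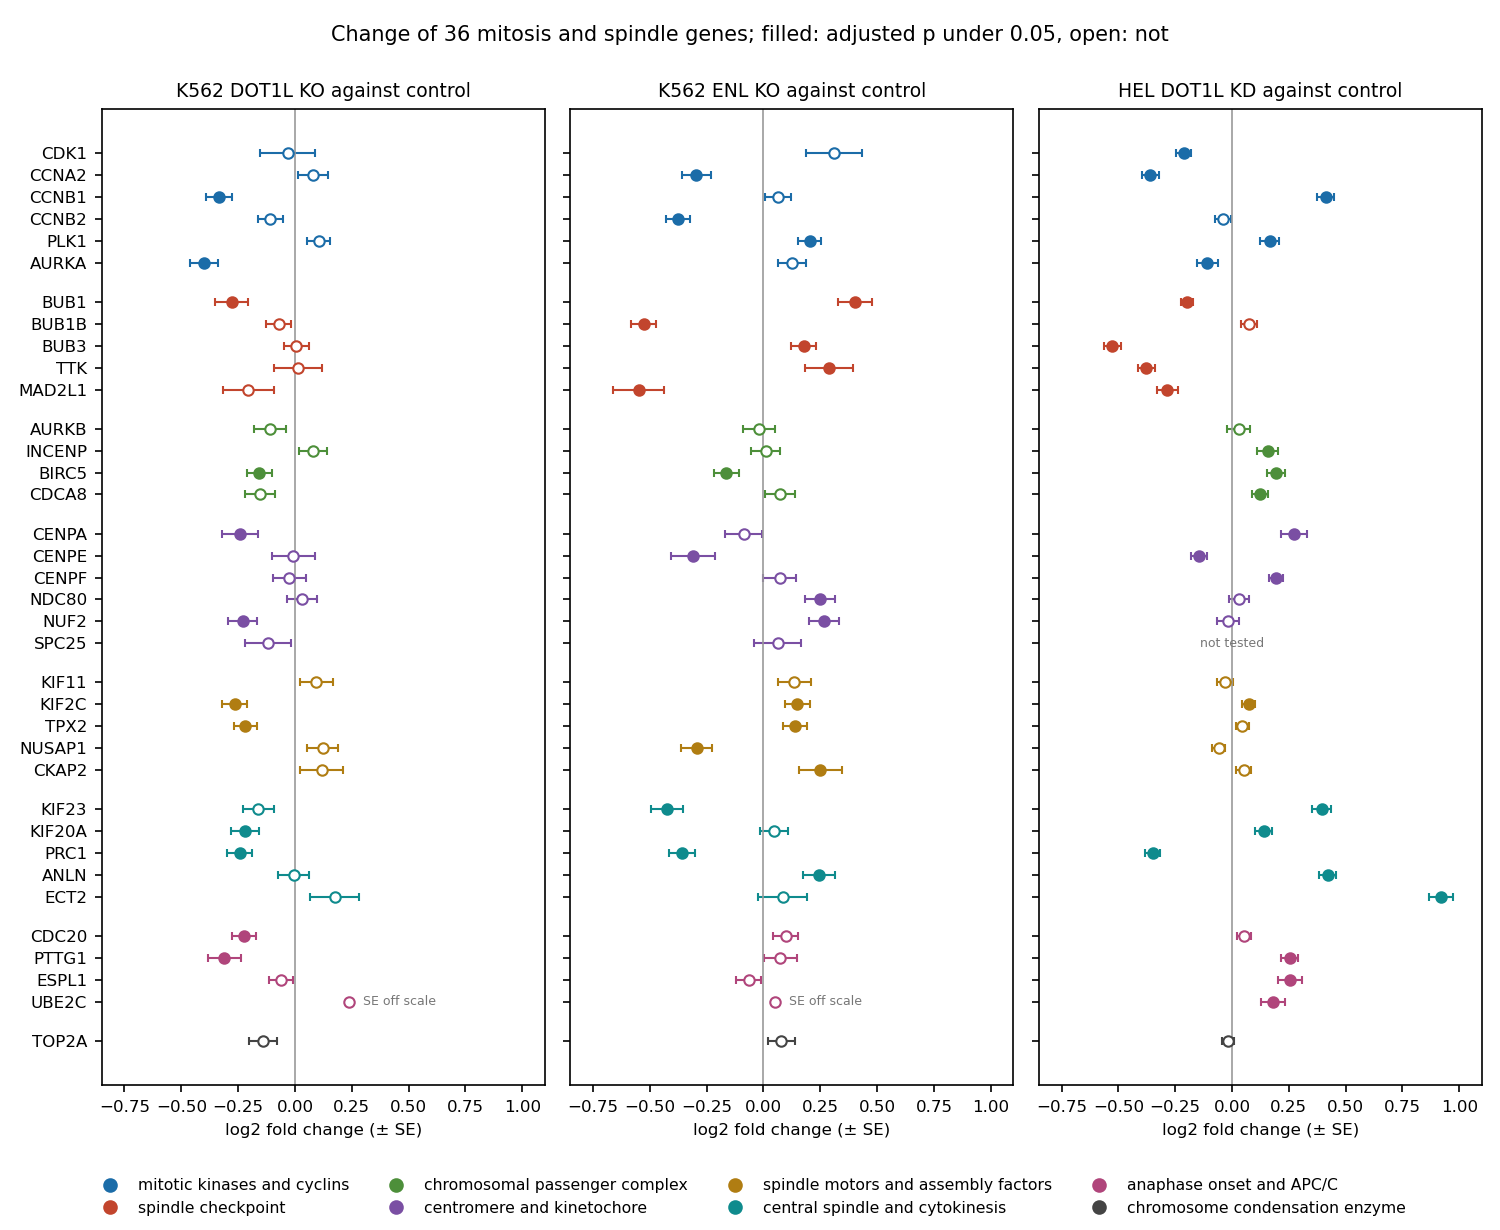
Log2 fold change ± SE of the 36 members by role in the 3 comparisons with a control; filled points passed an adjusted p of 0.05 and open points did not. In DOT1L KO all 12 filled points lie below 0, in ENL KO 10 lie above and 9 below, and in HEL 15 lie above and 9 below; UBE2C in K562 has an SE beyond the scale, and SPC25 was not tested in HEL.

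Loss of ENL in K562 changed 19 of the 36 members, 10 higher and 9 lower, where 41.0% of all genes were called (18.8% higher, 22.2% lower). The member median was 0.07 beside 0.0028 over all genes, and libraries did not overlap for 23 members (63.9%), against 59.6% of all genes. The 5 checkpoint genes all passed the test but in different directions, 3 higher and 2 lower. Without control 1, control 2 or ENL KO 2, BUB3 and TTK were not called, which left 3 of 5, with BUB1 higher and BUB1B and MAD2L1 lower. None of the 4 genes of anaphase onset passed it, with log2 values from -0.07 to 0.10.

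The largest falls were in the checkpoint. MAD2L1 (chr4:120055623-120066848, minus strand), the MAD2 protein that binds and blocks CDC20, had 96.4 and 96.8 CPM in control and 57.0, 67.1 and 74.6 in ENL KO, a change on the log2 scale of -0.55 ± 0.11 (SE; adjusted p = 0.00152). BUB1B (chr15:40161009-40221136, plus strand), which encodes the checkpoint protein BUBR1, had 139 and 137 CPM in control and 97.6, 92.6 and 97.4 in ENL KO, -0.53 ± 0.06 (SE; adjusted p = 4.98e-06). For both genes every knockout library lay below both controls. In the same libraries BUB1, the related kinase, was higher, with 229 and 263 CPM in control and 303, 327 and 346 in ENL KO, 0.40 ± 0.07 (SE; adjusted p = 0.000662). BUB3, their shared binding partner (0.18), and TTK, the MPS1 kinase that starts checkpoint signalling (0.29), were also higher past the threshold.

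In cytokinesis, KIF23 (chr15:69414246-69448427, plus strand), the kinesin of the centralspindlin complex, had 66.1 and 69.7 CPM in control and 47.2, 51.5 and 53.2 in ENL KO, -0.42 ± 0.07 (SE; adjusted p = 0.00024). The groups did not overlap. PRC1 fell as well (-0.36), while ANLN, the anillin scaffold of the cleavage furrow, rose (0.24). Of the kinases and cyclins, CCNB2 (-0.38) and CCNA2 (-0.29) fell and PLK1 rose (0.20), whereas CDK1 (0.31) and CCNB1 (0.06) did not pass the test. CDK1 was called with DESeq2, without a filter, with the replicate block and without ENL KO 1. CENPE, a kinetochore motor (-0.31), NUSAP1, a spindle microtubule stabiliser (-0.29), and BIRC5 (-0.16) fell. NDC80, which grips microtubules at the kinetochore (0.25), its partner NUF2 (0.27), CKAP2, a spindle-associated protein (0.25), KIF2C (0.15) and TPX2 (0.14) rose.

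Without control 1 there were 9 calls, 1 higher and 8 lower, and without control 2 there were 11, 5 higher and 6 lower. BUB1, BUB1B, MAD2L1, KIF23, CCNA2, CCNB2 and PRC1 were called in each of these and under every other alternative except a minimum absolute log2 value of 0.5. MAD2L1 and BUB1B alone passed that minimum, which 21.0% of all genes passed. With upper-quartile scaling the split was 6 higher and 9 lower, and TTK, KIF2C, TPX2 and CKAP2 were not called. The labels name a sequencing lane for control and DOT1L KO but none for ENL KO, so a batch and the ENL knockout cannot be told apart.

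Set against each other, the knockouts differed in 23 of the 36 members, 7 higher and 16 lower in DOT1L KO than in ENL KO, where 60.2% of all genes were called (31.8% higher, 28.3% lower). Libraries did not overlap for 23 members here too, against 63.3% of all genes. Past an absolute log2 difference of 0.5 stood 2 members, BUB1 and AURKA, and 32.8% of all genes. BUB1 differed most. Its 195, 214 and 199 CPM in DOT1L KO and 303, 327 and 346 in ENL KO did not overlap, and the log2 difference was -0.68 ± 0.07 (SE; adjusted p = 9.38e-07). BUB1B went the other way, with 134, 134 and 127 CPM in DOT1L KO and 97.6, 92.6 and 97.4 in ENL KO, 0.45 ± 0.05 (SE; adjusted p = 3.17e-06). AURKA had 109, 110.4 and 99.0 CPM in DOT1L KO and 150.1, 151 and 159 in ENL KO, -0.53 ± 0.05 (SE; adjusted p = 1.85e-06). NUF2 (chr1:163321933-163355763, plus strand) had 43.3, 44.5 and 42.8 and 60.6, 61.2 and 62.9 CPM, -0.50 ± 0.06 (SE; adjusted p = 5.32e-06). Neither gene overlapped between the knockouts.

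The 16 genes lower in DOT1L KO than in ENL KO included CCNB1 (-0.40), KIF2C (-0.41), PTTG1 (-0.39), TPX2 (-0.36), CDC20 (-0.32) and TOP2A (-0.22). The 7 higher ones were BUB1B, NUSAP1 (0.42), CCNA2 (0.37), MAD2L1 (0.34), CENPE (0.30), CCNB2 (0.27) and KIF23 (0.26). CDK1, the central mitotic kinase, was lower in DOT1L KO by this test (-0.34) but its groups overlapped, and it was not called without DOT1L KO 1 or without ENL KO 3. TTK overlapped too and was lost in the same 2 cases and with library-size scaling, BUB3 was lost without DOT1L KO 1, and MAD2L1 overlapped and was lost without DOT1L KO 2 (0.25, adjusted p = 0.059 by the same test). For PRC1 and BIRC5, lower than control in both knockouts, the difference between the knockouts was 0.12 ± 0.05 and 0.01 ± 0.05 (log2, SE) and did not pass the test. PRC1 did pass it with upper-quartile or library-size scaling, with the length trend removed and with the replicate block. It also passed without DOT1L KO 3 and without ENL KO 3.

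**Figure D4:**
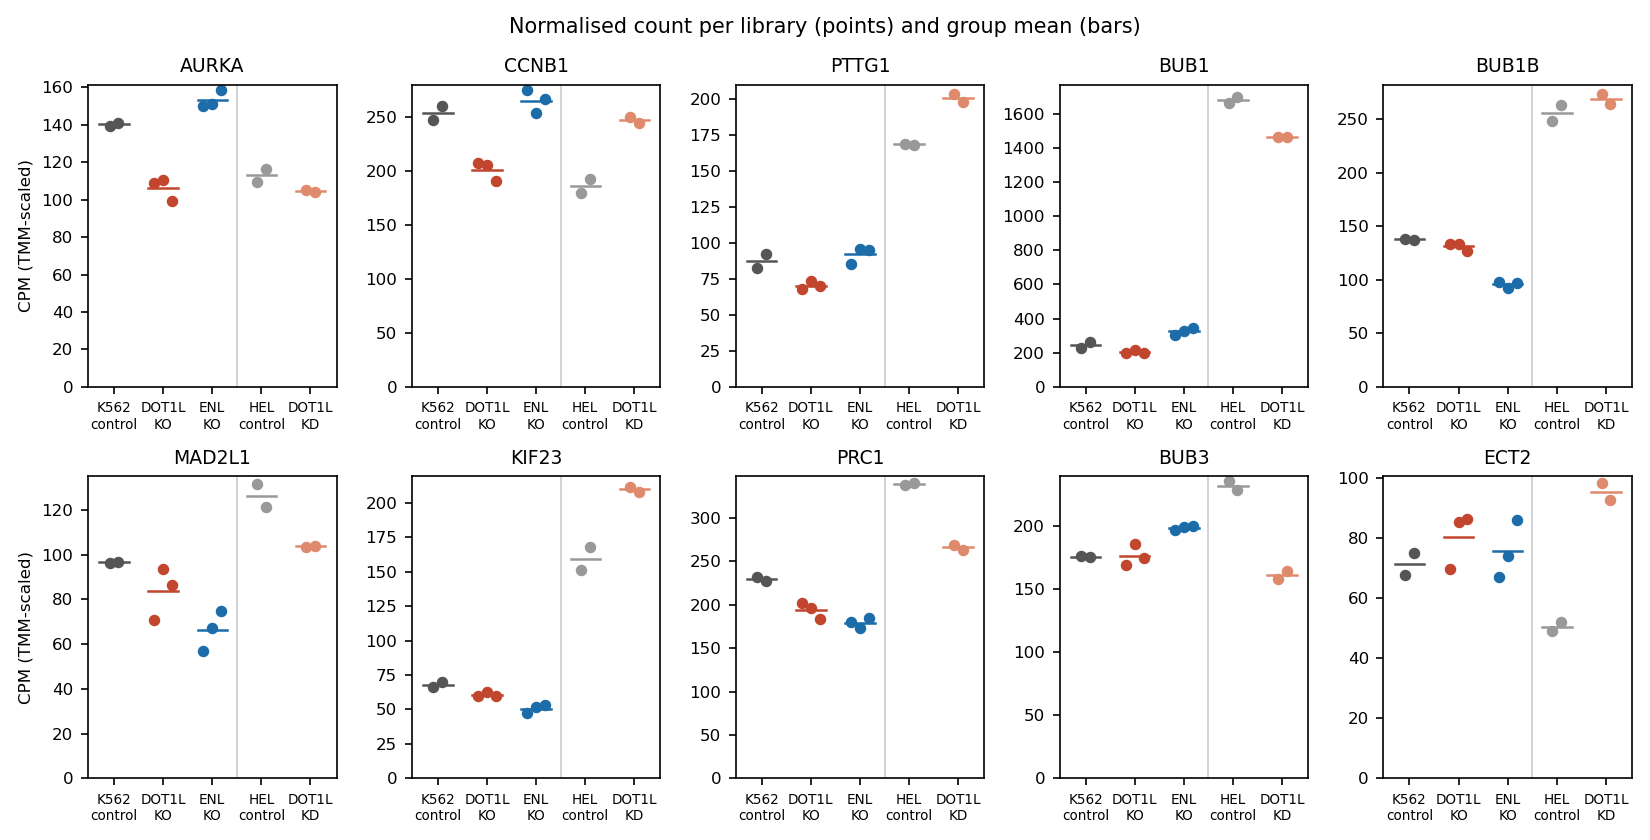
TMM-scaled CPM of 10 members in every library (points) with the group mean (bars); axes start at 0 and the vertical line separates the K562 and HEL tables. AURKA, CCNB1 and PTTG1 are low in K562 DOT1L KO, BUB1 is high and BUB1B, MAD2L1 and KIF23 low in ENL KO, and in HEL BUB3 is lower and ECT2 higher with DOT1L KD.

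In HEL, DOT1L knockdown changed 24 of the 35 members tested, 15 higher and 9 lower (edgeR's quasi-likelihood test), where 55.0% of all 12635 genes were called (27.0% higher, 28.0% lower). The member median was 0.05 beside 0.013 over all genes. Libraries did not overlap for 28 members (80.0%), against 75.9% of all genes. An absolute log2 value of 0.5 was reached by 2 called members, ECT2 and BUB3, and by 19.4% of all genes. All 5 genes of the central spindle and cytokinesis passed the test, 4 higher and 1 lower, and 4 of 5 checkpoint genes were lower with none higher. The chromosomal passenger complex had 3 of 4 higher and the anaphase group 3 of 4 higher, with none lower in either. Mitotic kinases and cyclins had 2 higher and 3 lower, and centromere and kinetochore genes 2 higher and 1 lower of 5 tested; differences between roles were not tested. DESeq2 called 1 of 4 in the passenger complex and 2 of 4 in the anaphase group. These replicates were close, the biological coefficient of variation being 1.83% in the HEL fit and 6.34% in the K562 fit.

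ECT2 (chr3:172750685-172821474, plus strand), the exchange factor that activates RhoA at the cleavage furrow, changed most. It had 49.0 and 52.0 CPM in control and 98.2 and 92.8 in DOT1L KD, and its log2 fold change of 0.92 ± 0.05 (SE; adjusted p = 1.26e-20) was the largest of any member in any comparison with a control. ANLN (chr7:36389803-36453791, plus strand), an anillin that binds RhoA, had 157 and 156 CPM in control and 209 and 211 in DOT1L KD, 0.42 ± 0.04 (SE; adjusted p = 5e-14). KIF23 (0.39) and KIF20A (0.14) were also higher and PRC1 was lower (-0.35). CCNB1 rose with most of these. It had 179 and 192 CPM in control and 249.9 and 245 in DOT1L KD, 0.41 ± 0.04 (SE; adjusted p = 6.82e-14).

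BUB3 (chr10:123154244-123170467, plus strand), the WD40 protein that carries BUB1 and BUBR1 to kinetochores, had 236 and 228 CPM in control and 158 and 164 in DOT1L KD, -0.53 ± 0.04 (SE; adjusted p = 1.68e-17). Both knockdown libraries lay below both controls. TTK (-0.38), MAD2L1 (-0.28) and BUB1 (-0.20) fell too, and BUB1B did not pass the test (0.07). With upper-quartile scaling BUB1B did pass it, as higher. It also passed with library-size scaling and with the length trend removed. CCNA2 (-0.36), CDK1 (-0.21), CENPE (-0.14) and AURKA (-0.11) fell. CENPA (0.27), PTTG1 (0.25), ESPL1 (0.25), BIRC5 (0.19), CENPF, a large kinetochore protein (0.19), UBE2C (0.18) and PLK1 (0.17) rose. INCENP (0.16), the scaffold of the passenger complex, CDCA8, its borealin subunit (0.12), and KIF2C (0.07) rose as well, by little. With upper-quartile scaling the split was 20 higher and 7 lower, and DESeq2 did not call AURKA, INCENP, CDCA8, KIF2C and UBE2C. Leaving out 1 library ended the calls of AURKA, KIF2C, KIF20A, CDCA8 and UBE2C in at least 1 of 4 cases.

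Whether depletion of DOT1L moved these genes differently in K562 and HEL was tested directly. The interaction (log2 change in K562 DOT1L KO minus that in HEL DOT1L KD) was called for 19 of the 36 members, 3 above 0 and 16 below, against 38.9% of 15367 genes (19.1% above, 19.8% below). Past an absolute value of 0.5 were 6 members, against 25.4% of all genes. The largest were CCNB1 (-0.76 ± 0.08 (SE; adjusted p = 6.23e-08)), lower in K562 and higher in HEL, and ECT2 (-0.76 ± 0.12 (SE; adjusted p = 2.49e-05)), higher in HEL and at 0.17 ± 0.11 in K562. ECT2 had 67.6 and 75.1 CPM in K562 control and 69.6, 85.2 and 86.5 in DOT1L KO, which overlapped. PTTG1 had 169 and 168 CPM in HEL control and 203 and 198 in DOT1L KD, and its interaction was -0.58 ± 0.08 (SE; adjusted p = 8.44e-06). KIF23 had 66.1 and 69.7 CPM in K562 control and 60.0, 62.7 and 59.4 in DOT1L KO, and 151 and 168 and 211 and 208 CPM in HEL, with an interaction of -0.57 ± 0.08 (SE; adjusted p = 1.01e-05). The 3 above 0 were BUB3 (0.51), CCNA2 (0.42) and TTK (0.37), each called lower in HEL and not called in K562. In this fit the cell line goes together with knockout against knockdown and with fragment against read counting, which cannot be told apart.

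In all, 6 members were called in opposite directions in the 2 depletions of DOT1L: CCNB1, PTTG1, CENPA, BIRC5, KIF2C and KIF20A, all lower in K562 and higher in HEL. That is 17.1% of 35, beside 6.30% of all 11644 genes tested in both; none was higher in K562 and lower in HEL, as 6.26% of all genes were. Without K562 control 2 the 6 became 2, CCNB1 and KIF2C, and KIF2C was not called in HEL with the DESeq2 size factors, with DESeq2, without a filter or without control 1, DOT1L KD 1 or DOT1L KD 2. Another 3 were lower in both, AURKA, BUB1 and PRC1 (8.57%, beside 8.76% of all genes). PRC1 (chr15:90966038-90994651, minus strand) was the 1 member called lower against control in K562 DOT1L KO, ENL KO and HEL DOT1L KD alike; no member was higher in all 3. That is 2.86% of the 35 tested in all, beside 6.23% of 11644 genes called in 1 direction throughout. It had 232 and 228 CPM in K562 control, 202, 196 and 184 in DOT1L KO and 180.3, 173 and 184 in ENL KO, so both knockouts lay below control. In HEL it had 337 and 339.9 CPM in control and 269 and 263 in DOT1L KD. The log2 fold changes were -0.24 ± 0.06 (SE; adjusted p = 0.00267), -0.36 ± 0.06 (SE; adjusted p = 0.000197) and -0.35 ± 0.03 (SE; adjusted p = 2.64e-13). The 2 K562 comparisons share their controls. PRC1 shares 337 exonic bases with the antisense gene PRC1-AS1. AURKB, the kinase of the passenger complex, KIF11, the plus-end motor that separates spindle poles, and TOP2A were called in none of the 3 (8.57% of the 35, beside 16.1% of all genes). TOP2A was called in DOT1L KO without a filter, with the replicate block, with only the 2 groups compared and with all control columns kept. KIF11 was called in ENL KO without ENL KO 1. SPC25 was called in neither K562 comparison and was not tested in HEL.

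**Figure D5:**
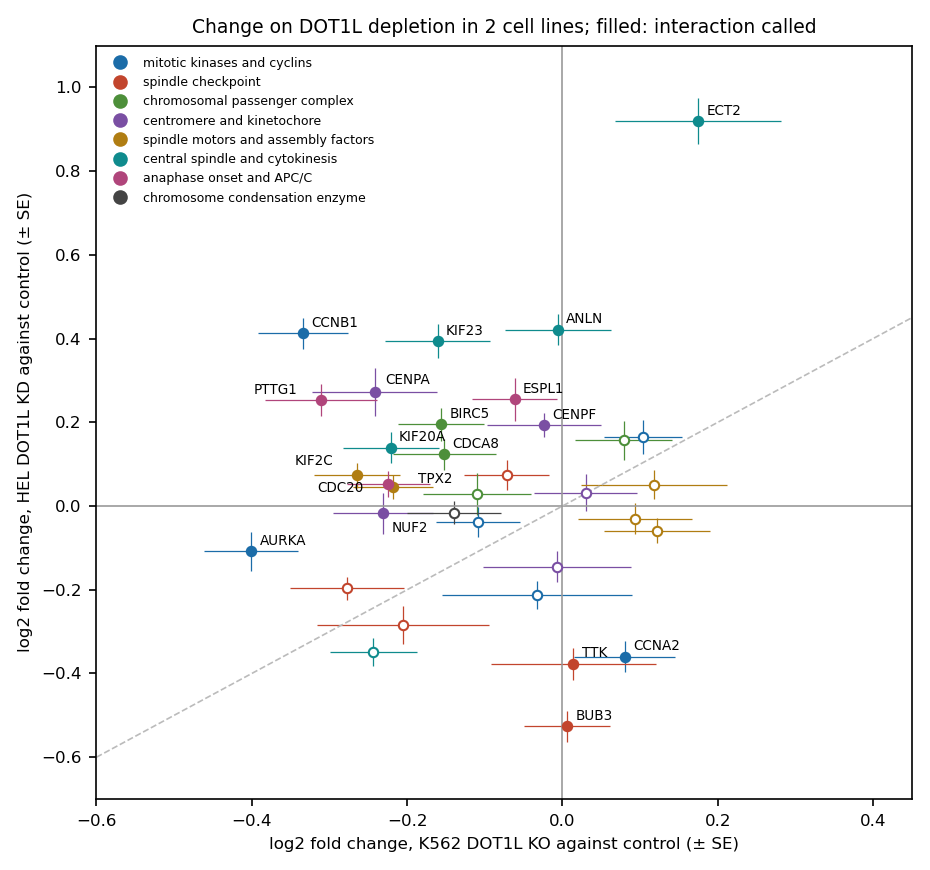
Log2 fold change ± SE of 34 members on DOT1L loss in K562 (x axis) and on DOT1L knockdown in HEL (y axis); the dashed line marks equal changes, filled, named points passed the interaction test, and colours mark the role. CCNB1, PTTG1 and CENPA lie at the upper left (lower in K562, higher in HEL), ECT2 at the top, and BUB3, TTK and CCNA2 at the lower right; SPC25 (not tested in HEL) and UBE2C (K562 SE beyond the scale) are left out.

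Other genes of cell division, from lists set out by role, were counted in the same way. Beside them stand the shares of all genes called: 51.1% in DOT1L KO (26.9% higher, 24.2% lower), 41.0% in ENL KO (18.8% higher, 22.2% lower) and 55.0% in HEL (27.0% higher, 28.0% lower). Among 23 other kinesins and spindle proteins, 12 were called in DOT1L KO, 4 higher and 8 lower, 7 in ENL KO (4 higher, 3 lower), and 11 of 22 tested in HEL (9 higher, 2 lower). FAM83D, which brings casein kinase 1 to the spindle, was at -0.70 ± 0.07 in DOT1L KO, -0.41 ± 0.07 in ENL KO and 0.59 ± 0.06 in HEL (log2, SE), past the threshold each time. Among 32 other kinetochore proteins, 11 were called in DOT1L KO (9 higher, 2 lower), 14 in ENL KO (12 higher, 2 lower) and 17 of 31 in HEL (5 higher, 12 lower). The shares called were 52.2% in DOT1L KO and 30.4% in ENL KO for the kinesins and spindle proteins, and 34.4%, 43.8% and 54.8% in DOT1L KO, ENL KO and HEL for the kinetochore proteins. CENPU of the inner kinetochore was higher in DOT1L KO (0.62 ± 0.09), CENPH higher in ENL KO (0.48 ± 0.07) and lower in HEL (-0.55 ± 0.07).

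Among 20 condensin and cohesin genes, 7 were called in each knockout (4 higher and 3 lower in DOT1L KO, 6 higher and 1 lower in ENL KO) and 14 in HEL (6 higher, 8 lower). STAG1, a cohesin subunit, was higher in DOT1L KO (0.98 ± 0.09), NIPBL, the cohesin loader, lower in ENL KO (-0.42 ± 0.06), and SMC2 of condensin lower in HEL (-0.51 ± 0.04). Of 14 APC/C core subunits, 4 were called in DOT1L KO (2 higher, 2 lower), 4 in ENL KO (all higher, ANAPC11 at 0.66 ± 0.06) and 6 in HEL (2 higher, 4 lower). In DOT1L KO, 35.0% of condensin and cohesin genes and 28.6% of APC/C core subunits were called, both below the share of all genes. Of 4 APC/C partners, none was called in DOT1L KO, UBE2D1 was lower in ENL KO (-0.51 ± 0.17) and UBE2S higher in HEL (0.54 ± 0.06).

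Of 11 regulators of mitotic entry, 6 were called in DOT1L KO (2 higher, 4 lower), 5 in ENL KO (2 higher, 3 lower) and 7 in HEL (5 higher, 2 lower). NEK2 (-0.52 ± 0.08), a centrosomal kinase, and CDC25C (-0.51 ± 0.10), a phosphatase that activates CDK1, fell in DOT1L KO. Of 13 regulators of G2 and M phase transcription, 3 were called in DOT1L KO, all higher and led by LIN54, the MuvB subunit that binds CHR letters (0.24 ± 0.08). In ENL KO 7 were called (5 higher, 2 lower, LIN54 at -0.23 ± 0.08) and in HEL 4 (2 higher, 2 lower, LIN52 of MuvB at -0.69 ± 0.12). Of 14 G1/S genes, 10 were called in DOT1L KO (7 higher, 3 lower, CCNE1 at 0.46 ± 0.09), 8 in ENL KO (7 higher, 1 lower, CDC6 at 0.40 ± 0.06) and 11 in HEL (4 higher, 7 lower, MCM5 at -0.41 ± 0.04).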

How the data were processed

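Of the 74 samples of the series, the 13 RNA-seq samples (strand-specific libraries of polyadenylated RNA) were used here. The authors deposited raw counts per gene, fragments for K562 and reads for HEL, per the file headers. The submitters' processing notes name fastp 0.13.1, HISAT2 2.1.0, Bowtie2 2.3.4.1 and featureCounts 1.6.1 with no roles; the use of strand in counting is not given in the sources used here. Groups follow the labels. Genes were kept with filterByExpr of edgeR 4.0.16 (R 4.3.3; minimum count 10, minimum total 15), scaled with TMM, and compared with edgeR's quasi-likelihood test, 8 K562 libraries in one fit, 4 HEL libraries in another and 9 libraries in the joint interaction fit. Benjamini-Hochberg adjustment covered all genes tested, and the threshold was 0.05. A floor of 3 counts was worth 0.103 to 0.247 CPM, for counting error only. Coordinates are those of the deposited tables, which lie on GRCh38.

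Values in every library are given for the 4 largest called, non-overlapping changes of each comparison, the 4 largest interactions, the 2 highest and 2 lowest levels of each table and members called 1 way against every control; of each list of other genes, up to 3 per comparison could be named. The members and lists were chosen with earlier results of these data known. On simulated counts, the fits recovered 38.8% (K562 DOT1L KO) and 67.2% (HEL) of genes changed 1.2-fold, and 89.6% and 98.5% of those changed 1.5-fold, among 13893 and 12491 genes. In each simulation 67 genes were changed 1.2-fold, 67 were changed 1.5-fold and 66 were changed 2-fold, all from the better counted genes. Far more genes were called in the data, so these shares do not give the sensitivity of the real fits. Alternatives were another scaling, no filter, DESeq2 1.42.0, removal of the length trend, a minimum fold, a replicate block, other sets of libraries and leaving out each library.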

Additional observations from a re-analysis of the deposited data

Results flagged for a closer look

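The results listed here drew attention because the change on DOT1L depletion differed between K562 and HEL by a test of that difference, the interaction in the joint fit. Values are the log2 change in K562 DOT1L KO minus that in HEL DOT1L KD. Cyclins and kinases differed by -0.76 (CCNB1), 0.42 (CCNA2) and -0.31 (AURKA). In the checkpoint the values were 0.51 (BUB3) and 0.37 (TTK). In the passenger complex, centromere and kinetochore they were -0.37 (BIRC5), -0.29 (CDCA8), -0.53 (CENPA), -0.24 (CENPF) and -0.23 (NUF2). Spindle factors differed by -0.36 (KIF2C) and -0.28 (TPX2). Genes of the central spindle and cytokinesis differed by -0.76 (ECT2), -0.57 (KIF23), -0.45 (ANLN) and -0.38 (KIF20A), and those of anaphase onset by -0.58 (PTTG1), -0.33 (ESPL1) and -0.29 (CDC20). CENPF and NUF2 were lost when single libraries were left out, and NUF2 also with library-size scaling, without a filter and with DESeq2.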

How the results depend on the processing

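No call of a member changed sign under any alternative run. Of 783 pairs of a call and an alternative other than the minimum fold and leaving out a library, 749 stayed past the threshold. When an absolute log2 value of at least 0.5 was also asked for, the members called were 0 in DOT1L KO, 2 in ENL KO, 2 between the knockouts, 2 in HEL and 6 in the interaction. Leaving out each library gave 6 to 12 calls in DOT1L KO, 9 to 19 in ENL KO, 20 to 27 between the knockouts, 21 to 26 in HEL and 17 to 22 in the interaction; 1 control library of K562 then stands alone and is assumed to vary like the other groups. Leaving out a HEL library likewise left 1 alone in its group, in the HEL fit and in the interaction fit. With all libraries, DESeq2 called 12, 18, 23, 19 and 18 in these comparisons. Of the 17 lists, library-size scaling put the median above 0 in 7 in DOT1L KO and in 4 between the knockouts, against 4 and 2 with TMM. The share of member windows with CHR letters was 52.9% in the 250 bases before the start alone. The planned comparison of protein sequences was not run.

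Whether replicate numbers pair the K562 samples was not settled, and the main fits left them unpaired. Deviations of same-numbered K562 samples correlated positively each time, at 0.053 to 0.220, and those of HEL at 0.00044. K562 samples of different number correlated at -0.158 to 0.088, but this range cannot decide on pairing. Its upper end, 0.088, was ENL KO 3 with control 2, whose column was also deposited as control 3. DOT1L KO 3 with control 2 (0.050) is a pair of the same kind. Deviations of the 2 controls mirror each other, so values with control 1 and control 2 differ only in sign. DOT1L KO 2 correlated better with ENL KO 3 (0.071) than with its own number in ENL KO. A replicate effect shared by the K562 groups was not taken out of the main fits. With the replicate block, 18 members were called in DOT1L KO (2 higher, 16 lower), 22 in ENL KO, 26 between the knockouts, 24 in HEL and 23 in the interaction, and every call made without the block was kept. UBE2C in K562 and SPC25 in HEL rest on few counts; the overlap of 7 members with other genes and the lane of ENL KO remain limits of every value given for them.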
